A study of Homo sapiens with 6 samples.

Results

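The Tribbles pseudokinases TRIB1, TRIB2 and TRIB3 and their partner COP1, an E3 ubiquitin ligase listed in the deposited tables under its older symbol RFWD2, were described across 6 RNA-seq libraries of KMS27 cells. KMS27 is an established line of human multiple myeloma, a cancer of plasma cells. These 4 of the 63677 genes, with 22 of the 215170 transcripts, were selected by family and with their measured difference between the groups known. That difference is therefore given as a description, with no test. One group had 3 libraries of KMS27 cells with HA-TAZ overexpression, where TAZ is the transcriptional coactivator encoded by WWTR1 and HA is a short epitope tag. The other had 3 libraries that the labels call wild type. HA also stands in the sample titles of this second group, and its columns in the deposited tables bear the name scr, which no label explains. They were assigned by elimination, being the columns that do not name TAZ, and are referred to as controls a, b and c. The labels do not give the vector, promoter or number of clones behind the HA-TAZ cells, nor whether the libraries of a group came from separate cultures. The p-values below measure the spread between these libraries, which may be technical.

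Tribbles proteins have the fold of a kinase but little or no catalytic activity, and they act as scaffolds. A motif in their tail binds COP1, while the pseudokinase domain holds a substrate such as the transcription factor C/EBP alpha, so that COP1 marks the substrate for destruction by the proteasome. COP1 also targets JUN and the ETS factors ETV1, ETV4 and ETV5 through a complex with DET1, DDB1 and CUL4A. In blood cells, TRIB1 and TRIB2 are known as drivers of myeloid leukaemia that act by removing C/EBP alpha. TRIB3 is best known as a gene that ATF4 and DDIT3 switch on during stress of the endoplasmic reticulum or shortage of amino acids, a state that antibody-secreting plasma cells have to manage.

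To show what lies before the start sites of the genes compared below, the 250 bases upstream of a RefSeq start site on GRCh38.p14 follow for TRIB3 (chr20:381045-381294, plus strand, the first of 3 windows), COP1 (chr1:176207287-176207536, minus strand) and JUN (chr1:58784048-58784297, minus strand), a COP1 substrate whose transcript rose. All are printed 5′ to 3′ on the gene's strand. Capitals mark the matches to 4 motifs searched on both strands: GGAATG of TEAD factors, the DNA-binding partners of TAZ, TGACATCA and TGANTCA of AP-1, and TGATGCAA of C/EBP-ATF pairs such as DDIT3 with ATF4.
TRIB3: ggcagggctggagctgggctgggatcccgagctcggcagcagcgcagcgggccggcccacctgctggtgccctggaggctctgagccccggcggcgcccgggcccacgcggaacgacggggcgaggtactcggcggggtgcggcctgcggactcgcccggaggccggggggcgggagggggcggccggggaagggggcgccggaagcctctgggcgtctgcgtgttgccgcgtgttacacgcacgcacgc
COP1: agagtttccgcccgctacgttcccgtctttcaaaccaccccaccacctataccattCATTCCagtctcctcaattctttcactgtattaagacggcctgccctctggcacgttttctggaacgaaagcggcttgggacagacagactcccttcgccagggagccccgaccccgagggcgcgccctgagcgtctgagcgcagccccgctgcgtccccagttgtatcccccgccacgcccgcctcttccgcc
JUN: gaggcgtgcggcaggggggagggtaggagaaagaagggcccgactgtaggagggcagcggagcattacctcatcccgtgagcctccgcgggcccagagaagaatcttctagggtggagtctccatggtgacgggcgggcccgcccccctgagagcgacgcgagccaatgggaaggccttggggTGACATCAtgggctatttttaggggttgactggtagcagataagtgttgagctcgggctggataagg
The COP1 window held 1 TEAD match, read as CATTCC on the printed strand, 194 bases before the start. The JUN window held 1 TGACATCA match 67 bases before it. The TRIB3 window held none of the 4, and neither did the TRIB2 window, which is not printed. Of 35116 promoter windows of this length, 11.9% held GGAATG, 2.37% TGACATCA, 6.57% TGANTCA and 0.772% TGATGCAA. A match is a string of letters and not a shown site of binding.

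Levels are given as the authors' TPM, an abundance that corrects for transcript length and gives a transcript's share of a library. Scaled TPM is TPM divided by a factor per library, the median of ratios over 21512 genes. The factors were 0.860, 0.961 and 0.884 for HA-TAZ 1, 2 and 3, and 1.20, 1.08 and 1.05 for control a, b and c. The choice matters: the median log2 difference of the 22651 tested genes, those averaging 1 TPM or more, was -0.03 on scaled TPM and -0.27 on TPM as deposited. WWTR1, the overexpressed gene, measured 293, 306 and 293 TPM in HA-TAZ 1, 2 and 3 against 2.69, 2.22 and 1.69 TPM in control a, b and c. All 10 plasma cell markers had a mean of at least 1 TPM, and the B cell markers MS4A1 and PAX5 stayed below 0.2 TPM in every library. Among the other B cell markers, CR2 was at 8.27 to 9.78 TPM and CD22 at 0.228 to 0.818 TPM. The summed plasma cell markers ran from 2825 to 3262 TPM with HA-TAZ and from 4308 to 4877 TPM in the controls. Most of this sum was JCHAIN, at a mean of 2457 against 3792 TPM. SDC1 (92.2 against 87.7 TPM) and SLAMF7 (7.01 against 3.93 TPM) had higher means with HA-TAZ, and the other markers lower ones. The sum was not computed on scaled TPM, and the part of this difference in the results below was not tested.

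TRIB1 (ENSG00000173334) was the member with the large difference. This pseudokinase is the family member tied most closely to the loss of C/EBP alpha. Its level was 57.9 TPM in HA-TAZ 1, 65.2 TPM in HA-TAZ 2 and 57.7 TPM in HA-TAZ 3. In control a, b and c it was 32.2, 27.8 and 28.0 TPM. Every HA-TAZ library thus lay above every control library, with a wide gap between the lowest HA-TAZ library and the highest control. The mean TPM was 60.3 ± 4.27 (SD, n = 3) with HA-TAZ and 29.3 ± 2.48 (SD, n = 3) in the controls, a ratio of 2.06. On scaled TPM the libraries of a group lay closer together, at 67.3, 67.9 and 65.3 against 26.8, 25.6 and 26.6, and the ratio of the means was 2.54. The difference of mean log2(scaled TPM + 1) was 1.31 (SE 0.04), and 132 of the 22651 genes, 0.583%, had a larger positive one. Falls of that size were not counted. In bulk RNA, a change in the number of cells that express a gene and a change in RNA per cell cannot be told apart.

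**Figure D1:**
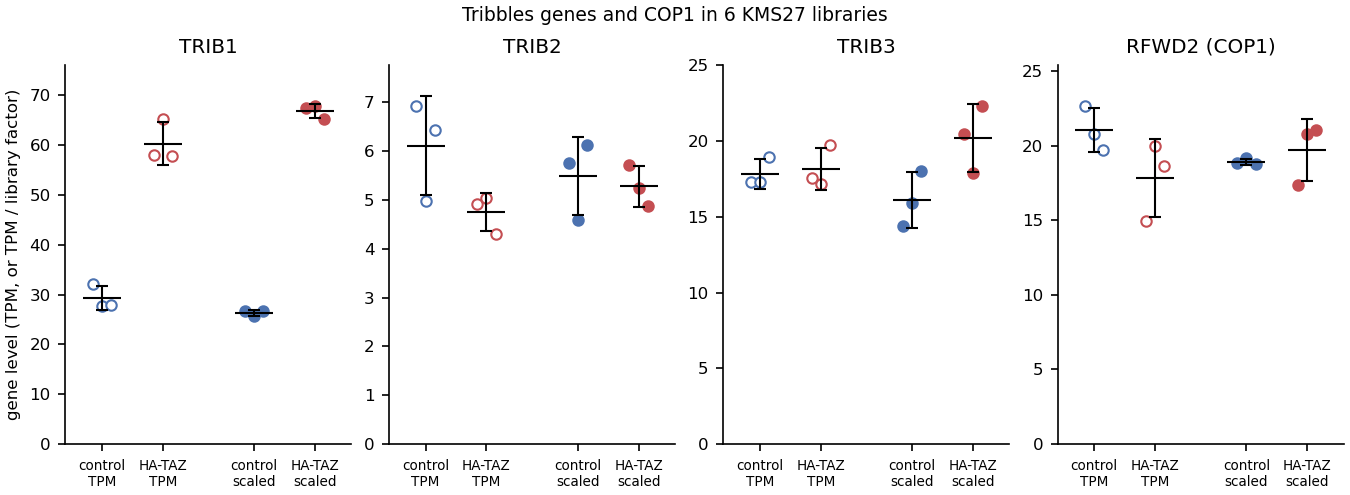
Level of TRIB1, TRIB2, TRIB3 and COP1 (RFWD2) in each of the 6 libraries, as TPM (open points) and scaled TPM (filled points) on axes from 0, with bars at the mean ± SD of 3 libraries. The TRIB1 groups are separate on both scales, 57.7 to 65.2 TPM against 27.8 to 32.2 TPM, while the groups of the other members overlap on both.

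The groups did not overlap for 1 of the 4 members, TRIB1. Among all 22651 genes, the groups did not overlap on scaled TPM for 38.5%. The members were chosen with these values known, so nothing is read from that share. As for depth, the means in the authors' deposited table imply about 6482 estimated counts for TRIB1, 2417 for TRIB3, 2046 for RFWD2 and 794 for TRIB2 in a typical library. TRIB2 is therefore the member with the least precise values.

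The higher level of TRIB1 was found in each of its 4 transcripts, whose groups did not overlap on either scale. These transcripts make up the gene sum known when TRIB1 was chosen, so this restates the gene difference. The share of all transcripts without overlap was not counted. The protein-coding transcript ENST00000311922.3 was at 34.8 ± 2.84 TPM (SD, n = 3) with HA-TAZ and 17.0 ± 1.77 TPM (SD, n = 3) in the controls. Its share of the TRIB1 sum was 57.6% ± 2.03 and 57.9% ± 3.74, so the balance between this transcript and the rest was nearly the same in both groups. The processed transcript ENST00000521778.1 held 18.2% ± 0.750 and 19.6% ± 5.40 of the sum. ENST00000520847.1 stood apart, with shares of 6.76%, 7.28% and 10.1% in the HA-TAZ libraries and 4.41%, 4.28% and 3.51% in control a, b and c. Its scaled TPM was 5.01 times as high with HA-TAZ, against 2.22 to 2.53 times for the other transcripts of TRIB1. It was also a minor transcript, with about 180.0 estimated counts in the authors' deposited table against 5567 for the main one. The authors' deposited table, which fits each transcript on a natural log scale, gave effects of 0.946 (SE 0.0522) for ENST00000311922.3, 0.813 (SE 0.110) for ENST00000519576.1, 1.61 (SE 0.228) for ENST00000520847.1 and 0.877 (SE 0.148) for ENST00000521778.1.

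TRIB2 (ENSG00000071575), the other family member that can drive myeloid leukaemia, was the lowest of the 4 genes. TRIB2 measured 4.91, 5.05 and 4.30 TPM in HA-TAZ 1, 2 and 3 and 6.93, 4.97 and 6.43 TPM in control a, b and c. Control b lay among the HA-TAZ libraries, so the groups overlapped. The mean TPM was 4.75 ± 0.395 against 6.11 ± 1.02 (SD, n = 3 each), a ratio of 0.778, and on scaled TPM the means were 5.28 ± 0.422 and 5.49 ± 0.802, a ratio of 0.961. The log2 difference was -0.04 (SE 0.12) on scaled TPM and -0.30 on TPM as deposited. The means of the TRIB2 transcripts did not all differ in the same direction. These transcripts were low, and the share of each overlapped between the groups. The transcript ENST00000155926.4 was at 2.10 ± 0.328 TPM with HA-TAZ and 1.75 ± 0.440 TPM in the controls (SD, n = 3 each). ENST00000381465.2 was at 0.838 ± 0.424 and 1.63 ± 0.445 TPM. In the authors' deposited table, 1 of the 4 TRIB2 transcripts had a positive effect, 0.423 (SE 0.162) for ENST00000155926.4. The other 3 had negative effects with wide errors, -0.519 (SE 0.392), -0.115 (SE 0.229) and -0.225 (SE 0.459).

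TRIB3 (ENSG00000101255), the stress-induced member, is known to bind AKT and also ATF4, its own inducer. Its level was 17.6, 17.2 and 19.8 TPM in HA-TAZ 1, 2 and 3 and 17.3, 17.3 and 19.0 TPM in control a, b and c. As deposited, these values interleaved, and the log2 difference was 0.02. On scaled TPM they were 20.4, 17.9 and 22.3 against 14.4, 15.9 and 18.1, where HA-TAZ 2 lay below control c, and the log2 difference was 0.31 (SE 0.11). The size of the TRIB3 difference therefore rested on the scaling between libraries. On scaled TPM, 13.0% of the tested genes had a larger positive difference, with falls not counted.

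Within TRIB3, the main coding transcript ENST00000217233.3 was at 15.6 ± 1.23 TPM with HA-TAZ and 14.7 ± 0.742 TPM in the controls (SD, n = 3 each). Its groups overlapped as deposited and did not overlap on scaled TPM. ENST00000485293.1, which has no type in GENCODE 29, measured 1.102, 1.88 and 1.33 TPM in HA-TAZ 1, 2 and 3 against 2.66, 2.13 and 2.51 TPM in control a, b and c. It held 7.98% ± 2.59 of the TRIB3 sum with HA-TAZ and 13.6% ± 1.57 in the controls, and these shares, which need no scaling, did not overlap. Coding transcripts together made up 93.7%, 89.0% and 93.3% of TRIB3 in the HA-TAZ libraries and 84.6%, 87.7% and 86.8% in control a, b and c. The rest was ENST00000485293.1, counted as not coding for lack of a type, so these shares restate its own. A share of this kind shows unequal change between transcripts, not which of them changed.

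COP1 (RFWD2, ENSG00000143207), the ligase that the Tribbles proteins recruit, was at 14.9, 20.0 and 18.6 TPM in HA-TAZ 1, 2 and 3. In control a, b and c it was at 22.7, 20.8 and 19.7 TPM. HA-TAZ 1 was the low library, and HA-TAZ 2 lay above control c. The mean was 17.9 ± 2.62 against 21.1 ± 1.501 TPM (SD, n = 3 each), and on scaled TPM 19.7 ± 2.07 against 18.9 ± 0.208. The direction of the COP1 difference depended on the scaling, with a log2 difference of 0.05 (SE 0.08) on scaled TPM and -0.23 on TPM as deposited, and the groups overlapped on both. The pseudogene RFWD2P1, which could share reads with COP1, stayed between 0.0165 and 0.125 TPM.

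The 10 transcripts of COP1 were spread more evenly than those of TRIB1 or TRIB3. ENST00000367666.1 held 22.0% of the sum with HA-TAZ and 22.5% in the controls. ENST00000367667.1, annotated as a target of nonsense-mediated decay, was at 2.44, 6.13 and 2.45 TPM in HA-TAZ 1, 2 and 3 and at 5.48, 4.35 and 3.997 TPM in control a, b and c, so HA-TAZ 2 stood apart from the other HA-TAZ libraries. The retained-intron transcript ENST00000461830.2 was the 1 named here whose groups did not overlap on either scale, with 0.544 ± 0.0798 TPM against 0.991 ± 0.130 TPM (SD, n = 3 each). Its share of the COP1 sum was 3.07% ± 0.399 with HA-TAZ and 4.69% ± 0.279 in the controls. Coding transcripts made up 70.4%, 53.1% and 67.8% of COP1 in the HA-TAZ libraries and 52.4%, 56.5% and 60.6% in control a, b and c, which overlap. The authors' deposited table had positive effects for 4 of the 10 COP1 transcripts and negative ones for 6.

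**Figure D2:**
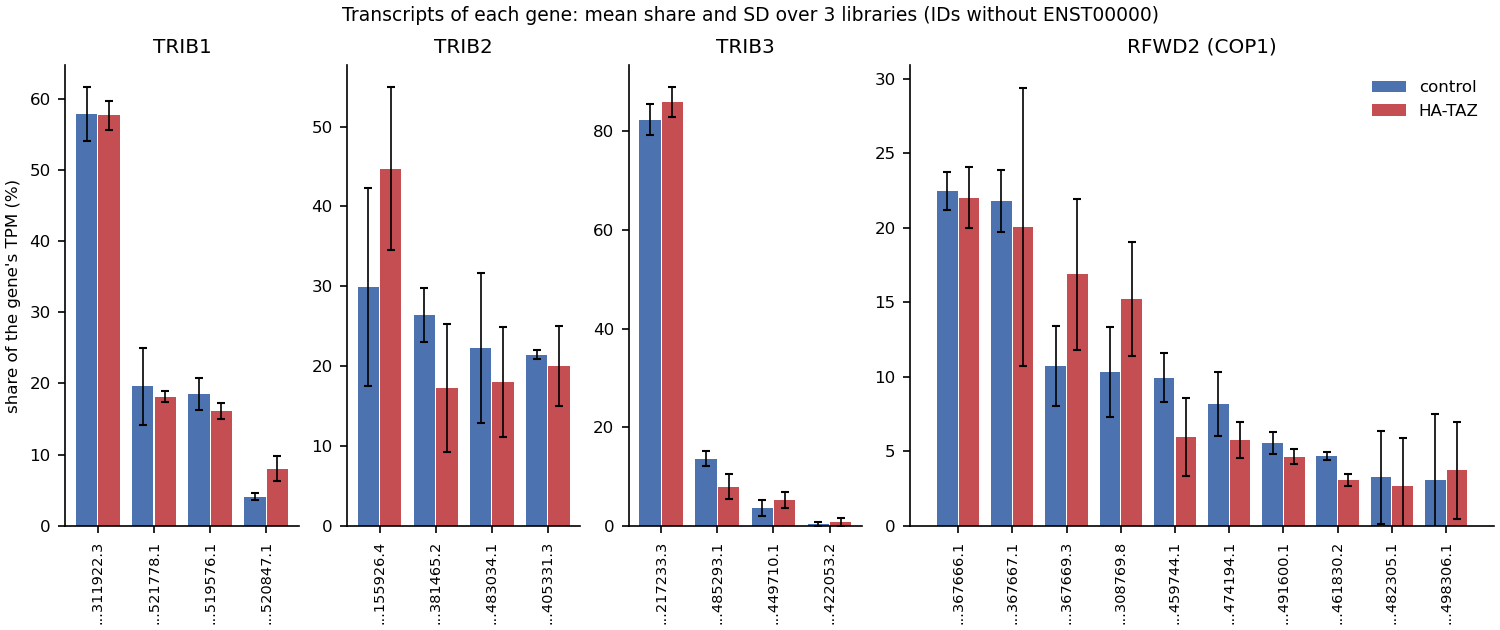
Share of each gene's TPM held by each of its transcripts, in percent, as the mean ± SD of 3 control libraries (blue) and 3 HA-TAZ libraries (red). The main TRIB1 transcript holds 57.6% and 57.9%, while ENST00000520847.1 of TRIB1 holds 8.06% against 4.07% and ENST00000485293.1 of TRIB3 holds 7.98% against 13.6%.

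Ratios within a library do not depend on the scaling. TRIB1 over COP1, in TPM, was 3.88, 3.26 and 3.10 in HA-TAZ 1, 2 and 3 and 1.42, 1.34 and 1.42 in control a, b and c. TRIB1 over TRIB3 was 3.29, 3.80 and 2.92 against 1.86, 1.61 and 1.48, and TRIB1 over TRIB2 was 11.8, 12.9 and 13.4 against 4.64, 5.58 and 4.35. None of these 3 ratios overlapped between the groups. TRIB3 over COP1, by contrast, was 1.18, 0.859 and 1.06 against 0.762, 0.831 and 0.961, with HA-TAZ 2 inside the control range. The 3 Tribbles genes summed to 80.4, 87.4 and 81.8 TPM with HA-TAZ and to 56.4, 50.02 and 53.4 TPM in the controls. TRIB1 made up 72.4% ± 2.03 of that sum with HA-TAZ and 55.0% ± 2.36 in the controls (SD, n = 3 each). By mean TPM the order in the controls was TRIB1, COP1, TRIB3 and TRIB2. In the HA-TAZ libraries, COP1 (14.9 to 20.0 TPM) and TRIB3 (17.2 to 19.8 TPM) overlapped, and TRIB1 and TRIB2 lay well above and below them.

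The other subunits of the ligase come first among the partners. Of the 10 genes listed for the COP1 ligase complex, limma called 0 higher and 0 lower at an adjusted p under 0.05, where 4.67% of all tested genes were called higher and 2.63% lower. At an unadjusted p under 0.05 it found 2 higher, CUL4A and UBE2E1, and 0 lower, beside 16.6% of all tested genes higher and 14.1% lower, and limma without a trend called 0. Their median log2 difference was 0.11 on scaled TPM, against -0.03 for all tested genes, and -0.18 on TPM as deposited, against -0.27. DET1, the adaptor that joins COP1 to its cullin scaffold, was at 3.89, 5.43 and 7.41 scaled TPM in HA-TAZ 1, 2 and 3 and 5.93, 7.76 and 4.15 in control a, b and c. These DET1 values overlapped, with a log2 difference of -0.08 (SE 0.27, limma adjusted p = 0.861). STK40, a pseudokinase related to the Tribbles that also binds COP1, was at 19.4, 19.3 and 20.1 against 17.8, 19.5 and 18.5 scaled TPM, a log2 difference of 0.07 (SE 0.05, limma adjusted p = 0.408).

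The COP9 signalosome removes the NEDD8 tag from cullins and so switches cullin ligases off. Of its 10 genes, limma called 0 higher and 0 lower. At an unadjusted p under 0.05, 7 were higher and 0 lower, beside the same 16.6% and 14.1% of all tested genes, and limma without a trend called 0. All 10 differences were positive on scaled TPM, from 0.13 to 0.47 with a median of 0.20, but 3 of 10 were positive on TPM as deposited, with a median of -0.09. With the filter raised to a mean TPM of at least 5, 4 were called higher, COPS3, COPS5, COPS7B and GPS1, where 12% of the 12613 genes then tested were called higher. The direction of this group therefore depended on the scaling, as it did for COP1 itself. All tested genes had medians of -0.03 on scaled TPM and -0.27 as deposited, and the COP9 median was higher on both scales.

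**Figure D3:**
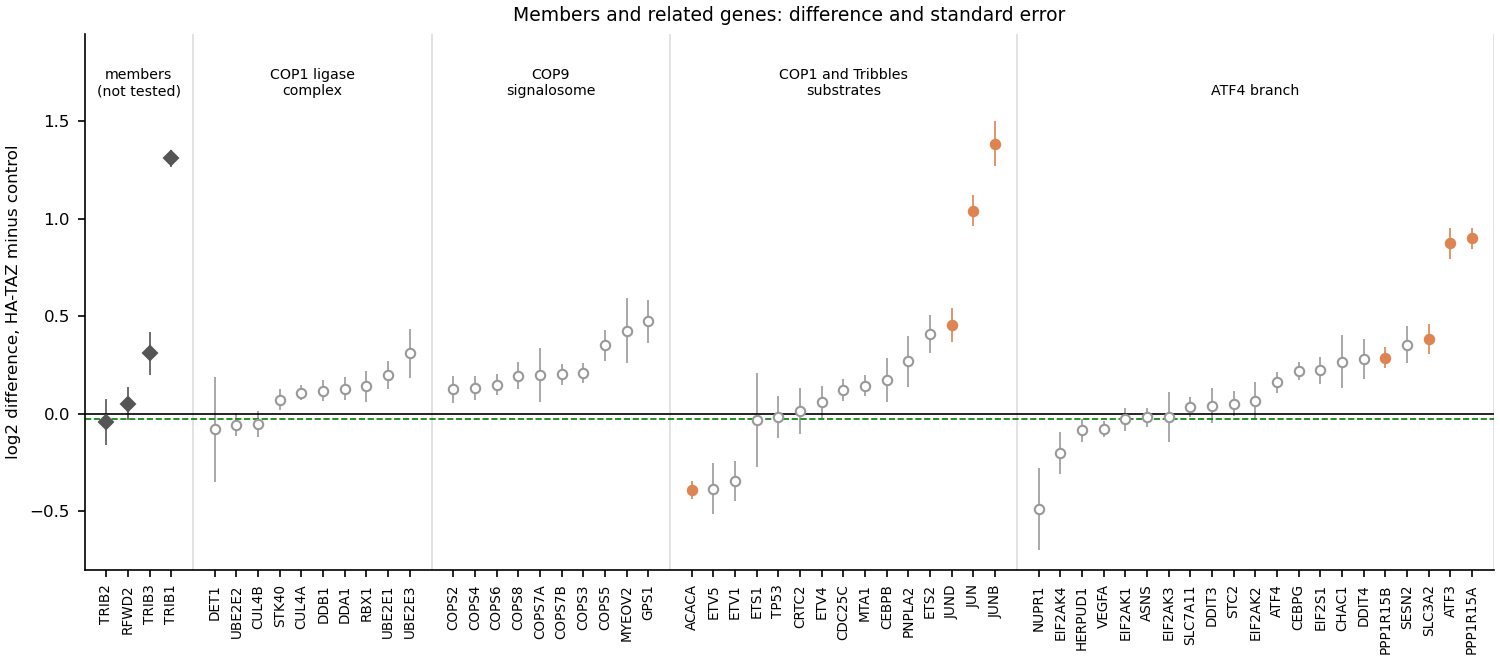
Difference of mean log2(scaled TPM + 1), HA-TAZ minus control, ± SE for the 4 members (diamonds, not tested) and the genes of 4 lists around them (filled orange where limma called them, open grey where it did not). The green dashed line is the all-gene median of -0.03. TRIB1 lies at 1.31, near JUN at 1.04 and JUNB at 1.39, and on TPM as deposited the values of TRIB3 and COP1 move to 0.02 and -0.23.

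Among the proteins that COP1 and the Tribbles send to degradation, the transcripts of the JUN family were higher and those of a lipid enzyme lower. RNA levels say nothing of the amount of these proteins. Of the 15 tested genes among 17, limma called 3 higher (JUN, JUNB and JUND) and 1 lower (ACACA). Over all tested genes it called 4.67% higher and 2.63% lower. The median log2 difference of the 15 was 0.12 on scaled TPM, against -0.03 for all tested genes. On TPM as deposited it was -0.15, against -0.27. JUN, the AP-1 subunit that COP1 targets, was at 18.6, 16.5 and 17.8 scaled TPM in HA-TAZ 1, 2 and 3 and at 7.30, 8.40 and 8.47 in control a, b and c. JUN rose by 1.04 on the log2 scale (SE 0.08, limma adjusted p = 0.00610), and all 3 HA-TAZ libraries lay above every control. JUNB was at 44.04, 37.3 and 42.3 against 12.9, 15.9 and 16.8 scaled TPM, a rise of 1.39 (SE 0.11, limma adjusted p = 0.00690). Both calls held under all 13 alternatives, with adjusted p-values from 0.00396 to 0.0428 for JUN and from 0.00415 to 0.0445 for JUNB in limma. JUND was at 63.1, 52.7 and 56.1 against 38.0, 42.0 and 44.6 scaled TPM, a rise of 0.45 (SE 0.09, limma adjusted p = 0.0434). That JUND call was lost whichever of the 6 libraries was left out and also on TPM as deposited, and its limma adjusted p ranged from 0.0281 to 0.120 over 13 alternatives.

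ACACA encodes acetyl-CoA carboxylase, the enzyme that commits acetyl-CoA to fatty acid synthesis and that TRIB3 is known to bring to COP1. It was at 37.8, 40.2 and 39.5 scaled TPM in HA-TAZ 1, 2 and 3 and at 49.9, 53.6 and 51.6 in control a, b and c. ACACA fell by 0.39 on the log2 scale (SE 0.05, limma adjusted p = 0.0167), with every HA-TAZ library below every control. That call was lost in 5 of the 6 fits that left out 1 library, with limma adjusted p-values from 0.0119 to 0.0765 over all 13 alternatives. ETV1 was at 40.5, 47.6 and 40.9 against 60.6, 55.3 and 48.8 scaled TPM, with no overlap, yet its log2 difference of -0.34 (SE 0.10) gave a limma adjusted p of 0.0895. On TPM as deposited ETV1 was called lower, on a scale where 13.5% of all tested genes were called lower. ETV5 was at 14.2, 13.5 and 13.1 against 21.8, 17.8 and 15.05 scaled TPM, a log2 difference of -0.38 (SE 0.13, limma adjusted p = 0.119). ETV4 was at 22.6, 21.4 and 21.03 against 23.2, 19.6 and 19.7 scaled TPM, where the groups overlapped, with a log2 difference of 0.06 (SE 0.08, limma adjusted p = 0.644) that was -0.23 on TPM as deposited. Of the C/EBP factors, CEBPB was at 18.7, 16.3 and 16.4 against 12.8, 16.0 and 16.6 scaled TPM, where the groups overlapped (log2 difference 0.17, SE 0.11, limma adjusted p = 0.345). CEBPA, the classic TRIB1 substrate in myeloid cells, was too low to test. It was at 0.271, 0.347 and 0.453 TPM with HA-TAZ, and in the controls it was listed at 0 in control a and at 0.199 and 0.170 TPM in control b and c.

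**Figure D4:**
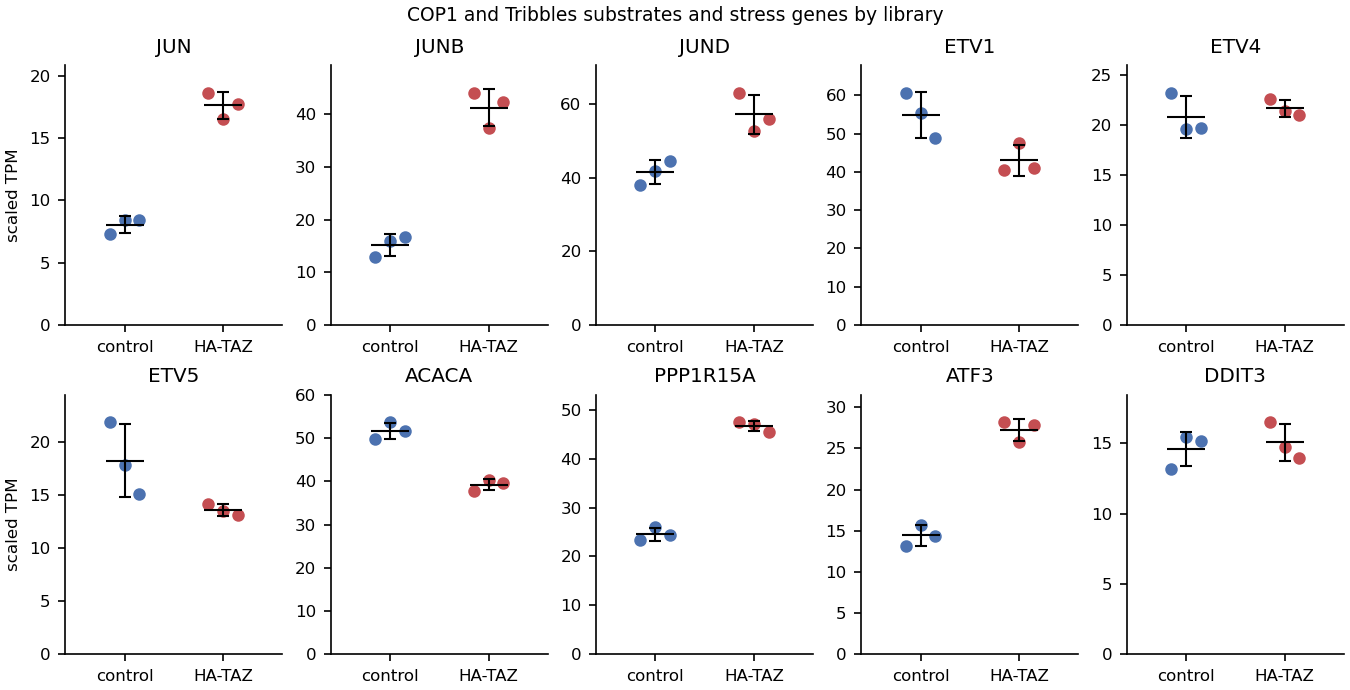
Scaled TPM in each of the 6 libraries for substrates of COP1 and the Tribbles (JUN, JUNB, JUND, ETV1, ETV4, ETV5, ACACA) and for the stress-response genes PPP1R15A, ATF3 and DDIT3, with bars at the mean ± SD of 3 libraries. The JUN family groups are separate with HA-TAZ higher, ACACA is separate with HA-TAZ lower, and DDIT3 overlaps.

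The Tribbles also bind kinases: TRIB3 is known to hold back AKT, and TRIB1 and TRIB2 bind MAP kinase kinases. Of the 7 tested genes for AKT and MAP2K kinases, limma called 0 higher and 0 lower on scaled TPM. At an unadjusted p under 0.05, 2 were higher and 0 lower, beside 16.6% and 14.1% of all tested genes, and limma without a trend called 0. Their median log2 difference was 0.16 on scaled TPM and -0.12 on TPM as deposited, against -0.03 and -0.27 for all tested genes.

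TRIB3 is a target of the ATF4 branch of the stress response, so the genes of that branch were read beside it. ATF4 itself, the transcription factor, differed by 0.16 (SE 0.05, limma adjusted p = 0.117) on scaled TPM and by -0.14 on TPM as deposited. DDIT3, which binds the TRIB3 promoter together with ATF4, was at 16.5, 14.8 and 13.9 scaled TPM in HA-TAZ 1, 2 and 3 and at 13.2, 15.4 and 15.2 in control a, b and c. These DDIT3 values overlapped, with a log2 difference of 0.04 (SE 0.09, limma adjusted p = 0.783) that was -0.24 on TPM as deposited. Of all 21 tested genes of the branch, limma called 4 higher (PPP1R15A, ATF3, SLC3A2 and PPP1R15B) and 0 lower, with a median of 0.07. Over all tested genes it called 4.67% higher and 2.63% lower, with a median of -0.03. On TPM as deposited, 2 of the 21 were called higher, PPP1R15A and ATF3, and 3 lower, ASNS, STC2 and VEGFA, with a median of -0.22. On that scale 1.15% of all tested genes were called higher and 13.5% lower, with a median of -0.27.

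PPP1R15A, the stress-induced subunit that restores translation by removing phosphate from eIF2 alpha, was at 47.4, 47.0 and 45.5 scaled TPM with HA-TAZ. It was at 23.3, 26.0 and 24.4 in control a, b and c. This rise of 0.90 (SE 0.05, limma adjusted p = 0.00269) was called under all 13 alternatives, with adjusted p-values from 0.00168 to 0.0296. ATF3, an AP-1 type factor induced by many stresses, was at 28.2, 25.8 and 27.8 against 13.2, 15.7 and 14.4 scaled TPM, a rise of 0.87 (SE 0.08, limma adjusted p = 0.00899). The ATF3 call was lost without HA-TAZ 1, at a limma adjusted p of 0.0541, within a range that began at 0.00550 over 13 alternatives. SLC3A2, a subunit of amino acid exchangers, rose by 0.38 (SE 0.07, limma adjusted p = 0.0431), and PPP1R15B, the constitutive counterpart of PPP1R15A, by 0.29 (SE 0.06, limma adjusted p = 0.0420). Each call was lost whichever of the 6 libraries was left out, and on TPM as deposited SLC3A2 differed by 0.08 and PPP1R15B by -0.00134.

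The genes whose levels followed each member most closely over the 6 libraries were found by Pearson's r on log2(scaled TPM + 1) among the 12613 genes averaging 5 TPM or more. For TRIB1 they were FAS, the death receptor (r = 0.9990), CXCL10, an interferon-induced chemokine (r = 0.9989), and LCP1, an actin-bundling protein of blood cells (r = 0.9988). With 6 libraries in 2 groups, these values mostly restate the difference between groups. For TRIB3 they were CHID1 (r = 0.9985), NELFA (r = 0.9970) and TUBGCP6 (r = 0.9959). For TRIB2, whose values spread within the groups, r was lower, with RNU6-1306P at 0.9762, AP000254.8 at 0.9753 and FKBP14 at 0.9659. For COP1 they were HERC2 (r = 0.9697), RP1-81D8.3 (r = 0.9645) and Y_RNA (r = 0.9573). For each member, these are the highest values among 12613 candidates over only 6 libraries. How high r would run among unrelated genes was not tested. Among the members themselves r was 0.764 for TRIB1 with TRIB3, -0.144 for TRIB1 with TRIB2 and 0.277 for TRIB1 with COP1. All these r are on scaled TPM, and r on TPM as deposited was not computed. This matters most for TRIB3, whose difference between the groups rested on the scaling.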

How the data were processed

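Total RNA, depleted of ribosomal RNA, was sequenced from 6 libraries of KMS27 cells. The authors deposited TPM per transcript, quantified with kallisto 0.46.0 on GRCh37 and compared with sleuth 0.30.0, per the submitters' processing notes. The annotation release and strand setting are not given in the sources used here, so overlapping and antisense genes are uncertain. TPM sums to 1000000 in each library, so depth per library is unknown. The authors' deposited table gives effects as a natural log per the file headers. The 3 scr columns were taken as wild type by elimination, and 0 columns of values per library were left unused.

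For each Ensembl gene ID, the TPM of its transcripts was added up. The table pairs MTA1 with a second ID of the same values, and the ID in GENCODE 29 was used. GENCODE 29 and the RefSeq promoter table are on GRCh38 and served only for gene and transcript types, held for 82.5% of gene IDs, and for promoter letters. The RefSeq table was searched for TRIB1, TRIB2, TRIB3 and COP1, and windows of the last 3 matched. TPM was divided by median-of-ratios factors over 21512 tested genes above 0 in all libraries. The plan had described the factors as over all genes above 0. The restriction to tested genes was made afterwards, and factors over genes of any level were kept as an alternative added after seeing the data. The test was limma 3.58.1 in R 4.3.3 on log2(scaled TPM + 1) with its intensity trend, as a two-sided test of the 22651 genes averaging 1 TPM or more. P-values were adjusted by Benjamini-Hochberg over all of them, and calls were made under 0.05. The log2(scaled TPM + 1) scale understates changes of low genes. The script was tested on simulated data. Tables and plots were made with Python 3.11.15 (pandas 2.3.3, numpy 2.4.6, matplotlib 3.10.9).

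The members, the gene lists (COP1 ligase complex, COP9 signalosome, substrates, bound kinases, ATF4 branch and cell type markers) and the tests were chosen with earlier results of these data known. The genes named were the members, every called gene of a list, STK40, DET1, JUN, CEBPA, CEBPB, ATF4, DDIT3, WWTR1 as the check of the labels, and the 3 genes most correlated with each member. ETV1, ETV4, ETV5, CR2, CD22, SDC1, SLAMF7, the COP9 genes, CUL4A, UBE2E1 and the genes called only on TPM as deposited were named after their values were seen. Alternatives were TPM as deposited, factors over protein-coding genes or over genes of any level, a pseudocount of 0.1, no filter or a mean TPM of at least 5, limma without a trend, and each library left out. These are the 13 alternatives behind the ranges of adjusted p. A further fit, outside those ranges, used only transcripts with statistics in the authors' deposited table. Of the other marker lists, 1 of 5 B cell, 1 of 4 T cell, 1 of 6 monocyte and granulocyte, 0 of 3 erythroid, 1 of 3 fibroblast and 2 of 4 epithelium genes had a mean of at least 1 TPM. S100A8 and S100A9 were listed at 0 in all libraries. Some listed genes are not reported here by name.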

Additional observations from a re-analysis of the deposited data

How the results depend on the processing

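On TPM as deposited, 3329 genes were called in place of 1652, with 7.84% of the calls higher in HA-TAZ in place of 64.0%. This share was 43.4% with factors over protein-coding genes and 72.5% with factors over genes of any level, which called 1922 genes. The log2 difference on TPM as deposited was 1.02 for TRIB1, -0.30 for TRIB2, 0.024 for TRIB3 and -0.23 for RFWD2, 1 of the 7 AKT and MAP2K genes was called, and PPP1R15B turned from higher to -0.00134. TRIB1 was at 1.24 with factors over protein-coding genes and at 1.34 with factors over genes of any level. The COP9 signalosome had 4 calls at a mean TPM of at least 5 and 2 with factors over genes of any level. With only transcripts with statistics in the authors' deposited table it had 2, COPS5 and GPS1. The ATF4 branch had 2 calls each with protein-coding factors, with no filter and with limma without a trend. Calls over all genes fell to 691 with no filter and to 756 without a trend. Leaving out 1 library left 118 to 470 calls over all genes, 2 to 3 among the substrates and 1 to 2 in the ATF4 branch. TRIB1 then ranged from 1.29 to 1.33, TRIB3 from 0.23 to 0.40, TRIB2 from -0.15 to 0.03 and RFWD2 from 0.01 to 0.14. Causes other than fewer samples in those fits were not tested. No paired analysis was possible because the control columns cannot be tied to numbered samples. Values near 1 TPM, such as the minor transcripts, rest on few counts, and TPM gives no depth per library.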
